A study of Mus musculus with 16 samples.

Results

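The 10 genes described here mark fibroblasts at rest and fibroblasts of the adventitia, the outer coat of blood vessels. They are Cd34, Ly6a, Ly6c1, Thy1, Pi16, Clec3b, Dpt, Abi3bp, Gsn and S100a4. They were chosen by symbol, with earlier results of these data known, and each symbol matched 1 Ensembl identifier. They make up 10 of the 55414 genes in the count table, and all 10 were among the 15285 genes with enough reads to be tested. Ly6c1, Clec3b and Abi3bp passed that filter through the libraries without TGF-β alone, so a difference in these genes was built into their selection.

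Fibroblasts keep the extracellular matrix of the heart in repair. In healthy mouse tissue, many of them carry the surface proteins CD34 and SCA-1, the product of Ly6a, and those around vessels also make PI16 and dermatopontin. Transforming growth factor β (TGF-β) signals through SMAD proteins and drives such cells towards contractile, matrix-producing myofibroblasts. Several of the markers are shared with other cells: endothelial cells also make Cd34, Ly6a and Ly6c1, and leukocytes make S100a4.

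RNA was sequenced from cultured mouse cardiac fibroblasts in 4 groups of 4 libraries. These were cells given a Cre adenovirus and TGF-β, cells given a green fluorescent protein (GFP) adenovirus and TGF-β, Cre cells without TGF-β and GFP cells without TGF-β. All cells were at passage 2, had been starved of serum for 24 h and carried a virus, which was left on for 5 h before 48 h of stimulation. Cre was meant to remove exon 2 of a floxed Has2, a gene for a hyaluronan synthase. The protocol gives the mice as Has2 fl/fl, whereas the genotype field reads wild type C57BL/6J, and it remains unknown which of these is right. The protocol gives 20 ng/mL for basic fibroblast growth factor and TGF-β together, so whether cells without TGF-β received the other factor is not stated, and its share in the differences below cannot be told apart from that of TGF-β. Each group held 1 library of each of 4 codes in the library names, here called preparations, 1 and 4 from male and 2 and 3 from female mice. What a code stands for and the number of hearts behind it are not stated. In these bulk libraries, fewer cells with a marker and less of its RNA per cell cannot be told apart.

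Library totals ranged from 17.9 to 48.7 M counts. Levels are given as CPM, counts scaled to a common library size (per M counts) after a correction for library composition. Has2 stood at 16.5 ± 6.32 CPM in Cre cells and 16.8 ± 5.67 CPM in GFP cells with TGF-β (SD, n = 4 each), and at 14.7 ± 1.38 and 18.7 ± 3.27 CPM in Cre and GFP cells without it. Neither Has2 difference passed the test. The counts are per gene and not per exon, so they do not show how far the gene was deleted in the libraries labelled Cre. The 8 fibroblast markers tested, among them Col1a1 and Pdgfra, summed to at least 19565 CPM in every library. The 10 endothelial markers summed to at most 53.6 CPM.

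Promoters are shown for the 2 pairs of markers whose levels ran most closely together, Cd34 with Dpt within groups and Ly6c1 with S100a4 over all libraries. Each runs from 250 bases before to 50 bases after the RefSeq start on the mouse build GRCm38.p6, and 6 of the 10 markers had an entry. Capitals mark matches on either strand to the SMAD box CAGAC, the AP-1 site TGANTCA, the interferon-γ-activated site TTCNNNGAA or the interferon-stimulated element. The motifs do not overlap in these promoters.
Cd34, chr1:194938571-194938870, plus strand: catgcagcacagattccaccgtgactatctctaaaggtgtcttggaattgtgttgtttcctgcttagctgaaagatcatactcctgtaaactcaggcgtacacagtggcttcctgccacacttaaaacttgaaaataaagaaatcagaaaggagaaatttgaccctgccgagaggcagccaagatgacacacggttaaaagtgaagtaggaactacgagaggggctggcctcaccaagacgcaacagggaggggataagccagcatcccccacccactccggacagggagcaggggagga
Dpt, chr1:164796413-164796712, plus strand: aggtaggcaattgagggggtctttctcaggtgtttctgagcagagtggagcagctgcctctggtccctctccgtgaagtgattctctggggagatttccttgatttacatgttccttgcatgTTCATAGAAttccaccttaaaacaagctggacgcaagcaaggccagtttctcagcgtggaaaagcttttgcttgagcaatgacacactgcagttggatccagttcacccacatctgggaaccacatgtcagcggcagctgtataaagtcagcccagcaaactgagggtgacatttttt
Ly6c1, chr15:75048788-75049087, minus strand: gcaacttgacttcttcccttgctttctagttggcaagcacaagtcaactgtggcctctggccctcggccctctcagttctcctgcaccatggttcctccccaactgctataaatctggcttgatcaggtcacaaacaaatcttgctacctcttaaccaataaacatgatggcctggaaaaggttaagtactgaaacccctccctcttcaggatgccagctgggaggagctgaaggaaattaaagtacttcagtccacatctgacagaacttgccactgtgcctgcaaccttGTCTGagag
S100a4, chr3:90603520-90603819, plus strand: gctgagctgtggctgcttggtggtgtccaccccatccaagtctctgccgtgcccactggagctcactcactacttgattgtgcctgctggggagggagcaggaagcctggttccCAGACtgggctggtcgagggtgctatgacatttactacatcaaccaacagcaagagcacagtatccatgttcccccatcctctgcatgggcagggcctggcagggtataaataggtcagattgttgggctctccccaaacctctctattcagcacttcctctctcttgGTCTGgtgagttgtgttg
The Cd34 promoter held none of these letters. Dpt had a match to the interferon-γ-activated site, at base -128, and no SMAD box. The Ly6c1 promoter shown had 1 SMAD box and S100a4 had 2. Over the 9 promoters of the 6 markers, counting alternative starts, 6 held a SMAD box, against 49.6% of the 32851 promoters in the table. None held an AP-1 site or an interferon-stimulated element, which 7.81% and 3.44% of all promoters hold, and 1 held the interferon-γ-activated site, which 8.30% hold. The SMAD boxes lay in promoters of Gsn, Ly6c1, S100a4 and Pi16, and the Ly6c1 promoters overlap and share a match. All of these are matches of letters, and the libraries do not measure binding.

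TGF-β against none asked how the growth factor changed these genes. In both Cre and GFP cells, 9 of the 10 markers fell and Gsn alone did not pass the test (edgeR's quasi-likelihood test, adjusted p under 0.05 over all genes tested). Among all tested genes 16.3% were called lower in Cre cells and 15.3% in GFP cells. The members' median log2 fold change was -3.83 in Cre cells and -3.85 in GFP cells, beside 0.02 and -0.02 over all genes tested. These counts and medians include Ly6c1, Clec3b and Abi3bp, for which the filter favoured a difference. Of the other 7 markers 6 fell in each type of cell, with a median of -2.28 in Cre cells and -2.36 in GFP cells. All 4 libraries with TGF-β lay below all 4 without it for 9 markers in Cre cells and for 8 in GFP cells, an order that 15.8% and 14.7% of tested genes showed in that direction. Within preparations, 9 markers were lower with TGF-β in 4 of 4 in each type of cell, as were 29.6% and 31.2% of tested genes. With the preparation as a block, 9 markers were again called lower in each, among 27.3% and 26.5% of tested genes. The counts by library order, within preparations and with the block also include Ly6c1, Clec3b and Abi3bp, in which the filter favoured a fall. Of the other 7 markers, only Gsn and, in GFP cells, Pi16 had overlapping libraries, and only Gsn was not lower in every preparation. The block called 6 of these 7 lower in each type of cell.

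**Figure D1:**
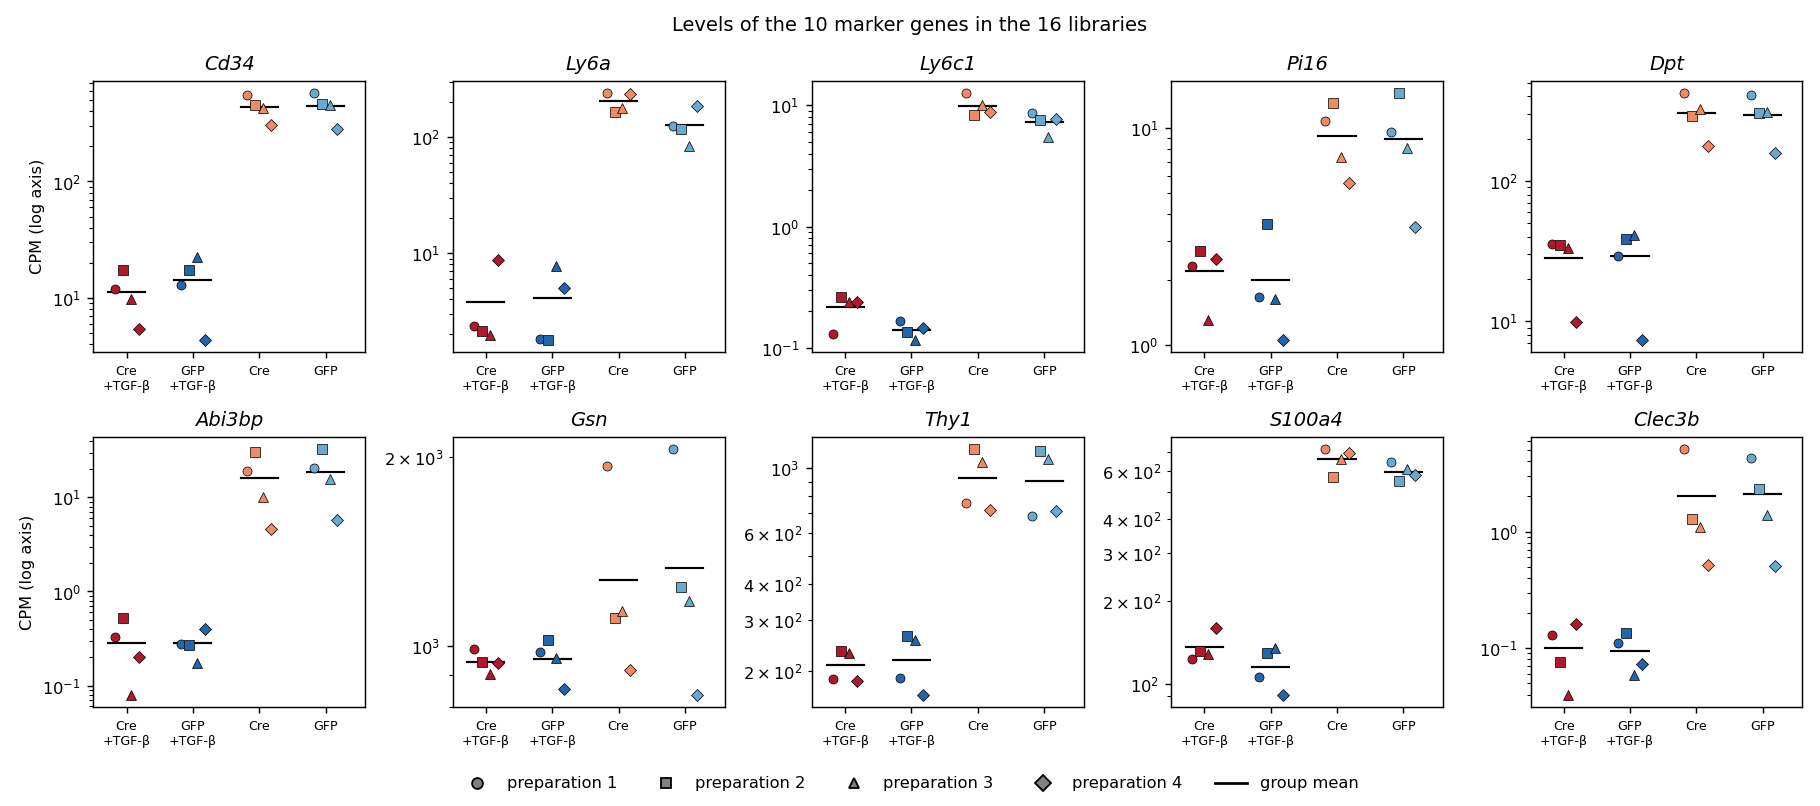
CPM of each marker in the 16 libraries on a log axis, with the group means as bars and the 4 preparations as symbols. In 8 panels every library with TGF-β stands below all libraries without it, Pi16 overlaps in GFP cells alone, and the Gsn panel spans only 836 to 2063 CPM and its groups overlap.

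Among the genes for surface proteins, Cd34, Ly6a and Ly6c1 had larger log2 fold changes than Thy1. CD34, the product of Cd34 (ENSMUSG00000016494, chromosome 1), is a sialomucin of progenitor, endothelial and resting stromal cells. Cd34 stood at 12.0, 17.4, 9.81 and 5.37 CPM in the 4 preparations of Cre cells with TGF-β, against 553, 456, 424 and 307 CPM in Cre cells without it. In GFP cells Cd34 stood at 12.9, 17.4, 22.6 and 4.39 CPM with TGF-β, against 571, 461, 451 and 283 CPM without. The groups with and without TGF-β were far apart, and preparation 4 was lowest in each of the 4 groups. The log2 fold change was -5.28 ± 0.48 in Cre cells (± SE, adjusted p = 1.59e-06), or 39.0-fold lower, and -4.95 ± 0.47 in GFP cells (adjusted p = 2.47e-06), or 30.9-fold lower.

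Ly6a (ENSMUSG00000075602, chromosome 15) encodes the glycolipid-anchored stem cell antigen SCA-1. It stood at 2.37, 2.15, 1.98 and 8.82 CPM in Cre cells with TGF-β, against 238, 164, 178 and 235 CPM in Cre cells without it. In GFP cells Ly6a stood at 1.84, 1.80, 7.72 and 4.97 CPM with TGF-β, against 125, 118, 84.6 and 186 CPM without. Within each pair of groups the libraries did not overlap, and preparation 4 with Cre and preparation 3 with GFP kept the most Ly6a under TGF-β. Its log2 fold change was -5.74 ± 0.57 in Cre cells (adjusted p = 3.77e-06) and -5.00 ± 0.56 in GFP cells (adjusted p = 1.11e-05). The size rested in part on single preparations: without the library of preparation 4 with Cre and TGF-β it was -6.55 in Cre cells (adjusted p = 8.34e-07), and without preparation 3 it was -5.60 in GFP cells (adjusted p = 0.000275).

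Ly6c1 (ENSMUSG00000079018), a neighbour of Ly6a on chromosome 15, encodes a related surface protein of endothelial cells, monocytes and stromal cells. It fell close to the limit of detection, with 4, 7, 6 and 6 counts in Cre cells with TGF-β, against 481, 404, 217 and 359 counts in Cre cells without it. In GFP cells it had 3, 5, 2 and 4 counts with TGF-β, against 229, 210, 117 and 152 counts without. No library with TGF-β came near any library without. The summed counts, scaled for library size, were 45.8 times lower in Cre cells with TGF-β than without (95% counting interval 30.4 to 72.5) and 52.7 times lower in GFP cells (31.2 to 96.8). The fitted log2 fold changes were -5.50 ± 0.25 and -5.66 ± 0.26.

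Ly6a and Ly6c1 belong to a family of related genes, and 19.0% and 32.8% of their 50-base stretches also occur in another gene. The 2 markers share such stretches with each other, and Ly6a was the more abundant of them per length in every library. Their levels are uncertain to that extent, since the handling of shared reads is not stated. Of the relatives Ly6c2 had 0 counts in all libraries and Ly6i at most 2. Counts of I830127L07Rik, which shares stretches with Ly6a, are not reported here.

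Thy1 (ENSMUSG00000032011, chromosome 9) encodes the surface glycoprotein CD90, a common marker of fibroblasts and of T cells. It kept the highest level of the surface genes under TGF-β. Thy1 stood at 188, 235, 231 and 184 CPM in Cre cells with TGF-β, against 757, 1166, 1051 and 719.6 CPM without, and at 189, 265, 257 and 165 CPM in GFP cells with TGF-β, against 682, 1146, 1077 and 714 CPM without. The libraries with TGF-β all lay below those without, and preparations 2 and 3 were above 1 and 4 in each group. Its log2 fold change was -2.14 ± 0.22 in Cre cells (adjusted p = 5.14e-06) and -2.05 ± 0.22 in GFP cells (adjusted p = 7.89e-06).

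Pi16 and Clec3b mark adventitial fibroblasts in mouse tissues, and both were scarce in these cultures. Pi16 (ENSMUSG00000024011, chromosome 17) encodes peptidase inhibitor 16. It stood at 2.30, 2.71, 1.30 and 2.49 CPM in Cre cells with TGF-β, against 10.8, 13.0, 7.37 and 5.55 CPM without. In GFP cells Pi16 stood at 1.67, 3.61, 1.64 and 1.06 CPM with TGF-β, against 9.62, 14.4, 8.05 and 3.50 CPM without. In Cre cells the groups did not overlap, whereas in GFP cells preparation 2 with TGF-β lay just above preparation 4 without it. Within preparations Pi16 was lower with TGF-β in 4 of 4 pairs for either virus. The log2 fold change was -2.06 ± 0.44 in Cre cells (adjusted p = 0.00237) and -2.14 ± 0.44 in GFP cells (adjusted p = 0.002).

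Clec3b (ENSMUSG00000025784, chromosome 9) encodes tetranectin, a secreted protein that binds plasminogen. It had 4, 2, 1 and 4 counts in Cre cells with TGF-β, against 196, 62, 24 and 21 counts without. In GFP cells Clec3b had 2, 5, 1 and 2 counts with TGF-β, against 113, 64, 30 and 10 counts without. The groups did not overlap, although in GFP cells preparation 4 without TGF-β came within a few counts of the highest library with it. The summed counts, scaled for library size, were 19.9 times lower with TGF-β in Cre cells (95% counting interval 10.9 to 40.2) and 22.6 times lower in GFP cells (12.1 to 47.8). These intervals cover counting error only. The fitted log2 fold changes were -4.25 ± 0.82 in Cre cells and -4.37 ± 0.84 in GFP cells. In Cre cells the value was -3.19 without the Cre library of preparation 1 (adjusted p = 0.00325) and -4.83 without preparation 4 (adjusted p = 0.000458).

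Dpt and Abi3bp encode secreted matrix proteins. Dermatopontin, the product of Dpt (ENSMUSG00000026574, chromosome 1), binds decorin and takes part in collagen fibril assembly. Dpt stood at 35.8, 34.8, 33.2 and 9.86 CPM in Cre cells with TGF-β, against 420.4, 290.1, 327 and 177 CPM without. In GFP cells Dpt stood at 29.4, 38.9, 41.3 and 7.42 CPM with TGF-β, against 407, 302, 312 and 157 CPM without. The groups were well apart and preparation 4 was lowest in each, as for Cd34. The log2 fold change was -3.42 ± 0.51 in Cre cells, 10.7-fold lower (adjusted p = 0.000159), and -3.33 ± 0.51 in GFP cells, 10.1-fold lower (adjusted p = 0.000197).

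Abi3bp (ENSMUSG00000035258, chromosome 16) encodes a protein with fibronectin-like domains that is known as TARSH. It was at 10, 14, 2 and 5 counts in Cre cells with TGF-β, against 739, 1489, 217 and 190 counts without. In GFP cells Abi3bp was at 5, 10, 3 and 11 counts with TGF-β, against 550, 911, 336 and 113 counts without. It was the least abundant marker per length under TGF-β, and again the groups did not overlap. The log2 fold change was -5.80 ± 0.70 in Cre cells (adjusted p = 2.27e-05) and -6.00 ± 0.72 in GFP cells (adjusted p = 2.05e-05). Counted from the lowest fold change of the 15285 genes, it ranked 16 in Cre cells and 13 in GFP cells, but only 2 of its 8 libraries with TGF-β reached the level of the filter. With the preparation as a block, the value in GFP cells was -5.32 without preparation 2 (adjusted p = 5.06e-06) and -6.70 without preparation 4 (adjusted p = 5.91e-12).

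S100a4 and Gsn encode proteins that act mainly inside the cell. The product of S100a4 (ENSMUSG00000001020, chromosome 3), or fibroblast-specific protein 1, is a calcium-binding protein that is also abundant in leukocytes. S100a4 stood at 124, 132, 129 and 159.9 CPM in Cre cells with TGF-β, against 719.9, 568, 661 and 693 CPM without, and at 106, 129, 136 and 90.9 CPM in GFP cells with TGF-β, against 648, 549, 606 and 577 CPM without. Libraries of a group lay close together and the groups were far apart. Its log2 fold change was -2.28 ± 0.13 in Cre cells (adjusted p = 2.96e-08) and -2.36 ± 0.14 in GFP cells (adjusted p = 2.51e-08). Of the 50-base stretches of S100a4, 47.4% also occur in Gm42674, an overlapping gene on the same strand. The handling of reads there is not stated. Gm42674 itself had at most 3 counts.

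Gelsolin, the product of Gsn (ENSMUSG00000026879, chromosome 2), severs and caps actin filaments. Gsn stood at 989, 943, 902 and 939 CPM in Cre cells with TGF-β, against 1936, 1109.9, 1138 and 918 CPM without. In GFP cells Gsn stood at 978, 1025, 956 and 856 CPM with TGF-β, against 2063, 1244, 1181 and 836 CPM without. The groups overlapped, since preparation 4 without TGF-β was as low as the libraries with it. Within preparations the log2 difference was -0.97, -0.24, -0.34 and 0.03 in Cre cells and -1.08, -0.28, -0.30 and 0.03 in GFP cells, so preparation 1 had the largest difference and preparation 4 none in that direction. The fitted log2 fold change was -0.44 ± 0.24 (adjusted p = 0.185) in Cre cells and -0.48 ± 0.24 (adjusted p = 0.151) in GFP cells. The coefficient of variation between libraries was 3.77% in Cre cells with TGF-β, against 35.4% without, and 7.47% in GFP cells with TGF-β, against 39.1% without. Without the GFP library of preparation 4 the difference in GFP cells passed (-0.66, adjusted p = 0.0403), and without the GFP library of preparation 1 it was -0.19 (adjusted p = 0.566). Without the Cre library of preparation 1 the value in Cre cells was -0.16 (adjusted p = 0.618).

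**Figure D2:**
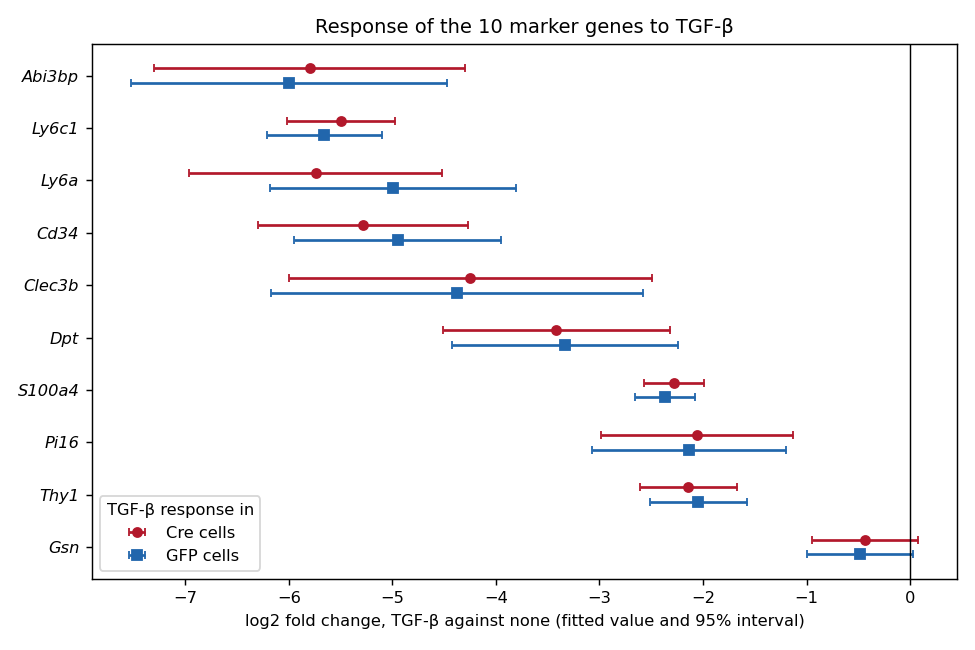
Fitted log2 fold change, TGF-β against none, of each marker in Cre cells (red circles) and GFP cells (blue squares), with 95% intervals. Abi3bp and Ly6c1 lie near -6, S100a4, Pi16 and Thy1 near -2, and the Gsn intervals include 0.

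Per kilobase of exon, the markers also differed in level by orders of magnitude, with exon lengths taken from GENCODE M21. In GFP cells without TGF-β, S100a4 had the highest level at 1019 CPM per kb, above Gsn at 421, Thy1 at 302, Dpt at 171, Ly6a at 106 and Cd34 at 60.6 CPM per kb. Ly6c1 at 4.37, Abi3bp at 2.52, Clec3b at 2.13 and Pi16 at 1.40 CPM per kb formed a low group. S100a4 did not overlap Gsn, and Cd34 did not overlap Ly6c1, but every other pair of neighbours in this order had overlapping libraries. With TGF-β, in GFP cells, Gsn led at 302 CPM per kb, above S100a4 at 198 and Thy1 at 73.1, and their libraries did not overlap. Dpt at 17.0, Ly6a at 3.39 and Cd34 at 1.97 CPM per kb followed, with overlapping libraries between neighbours. Cre cells kept the same first 6 genes in both media, in the same order.

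Cre against GFP asked whether the markers moved with the intended deletion of Has2. None of the 10 markers passed in either medium, with or without the preparation as a block. Over all genes edgeR called 0 genes (0%) in each medium, with 268 genes at an unadjusted p under 0.05 with TGF-β and 169 without, and DESeq2 called 0 and 3. With the block edgeR called 0.0654% of genes with TGF-β and 0.17% without. The difference of the TGF-β responses between Cre and GFP cells was called for 0 of the 10 markers and 0 of 15285 genes, with 90 genes at an unadjusted p under 0.05, and DESeq2 called 0. For Cd34 that difference was -0.33 ± 0.57 (95% interval -1.54 to 0.87), for Thy1 -0.09 ± 0.30 (-0.73 to 0.54) and for S100a4 0.08 ± 0.18 (-0.30 to 0.47). It was largest for Ly6a, at -0.74 ± 0.69 (-2.22 to 0.73), and least well bounded for Clec3b, at -2.61 to 2.86. These intervals are from the fit without the block, and with it that of Cd34 was -1.07 to 0.43.

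With TGF-β, no marker was higher or lower in the Cre library of all 4 preparations, as 10.1% and 14.1% of tested genes were. Thy1 differed by -0.06 ± 0.21 (95% interval -0.52 to 0.39), Gsn by -0.02 ± 0.24 (-0.53 to 0.50) and S100a4 by 0.24 ± 0.13 (-0.04 to 0.51). Ly6a went both ways, with log2 differences of 0.36, 0.25, -1.97 and 0.83 in preparations 1 to 4. Cd34 differed by -0.36 ± 0.41 (-1.23 to 0.51). The largest fitted difference was that of Ly6c1, at 0.60 ± 0.32 (-0.08 to 1.28). Least well bounded were Clec3b, at -2.32 to 2.41, and Abi3bp, at -1.83 to 1.80. These intervals are from the fit without the block. With it they were -0.20 to 0.12 for Thy1, -0.36 to 0.34 for Gsn, -0.03 to 0.50 for S100a4 and -0.88 to 0.25 for Cd34. For Ly6c1, Clec3b and Abi3bp the block gave -0.31 to 1.46, -1.78 to 1.51 and -1.30 to 1.27.

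Without TGF-β, Ly6a, Ly6c1 and S100a4 were higher in the Cre library of each preparation, and Abi3bp was lower. Of all tested genes, 12.7% were higher and 13.3% lower in 4 of 4 preparations. Ly6a averaged 204 ± 38.2 CPM in Cre cells and 128 ± 42.3 CPM in GFP cells (SD, n = 4 each), and its log2 difference within preparations was 0.94, 0.48, 1.08 and 0.34. Ly6c1 averaged 9.92 ± 1.90 CPM in Cre cells and 7.33 ± 1.34 CPM in GFP cells, with differences of 0.55, 0.14, 0.88 and 0.20. The libraries of the Cre and GFP groups overlapped for both genes. The fitted difference was 0.67 ± 0.46 for Ly6a (95% interval -0.31 to 1.65) and 0.44 ± 0.18 for Ly6c1 (0.04 to 0.83), and neither passed after adjustment. With the block these were 0.71 ± 0.33 (95% interval 0.002 to 1.41, adjusted p = 0.827) and 0.43 ± 0.14 (0.13 to 0.74, adjusted p = 0.658). In the fit without the block, intervals of the other markers included 0. The narrowest of them was that of S100a4, at -0.12 to 0.42, and the widest that of Clec3b, at -1.39 to 1.23.

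**Figure D3:**
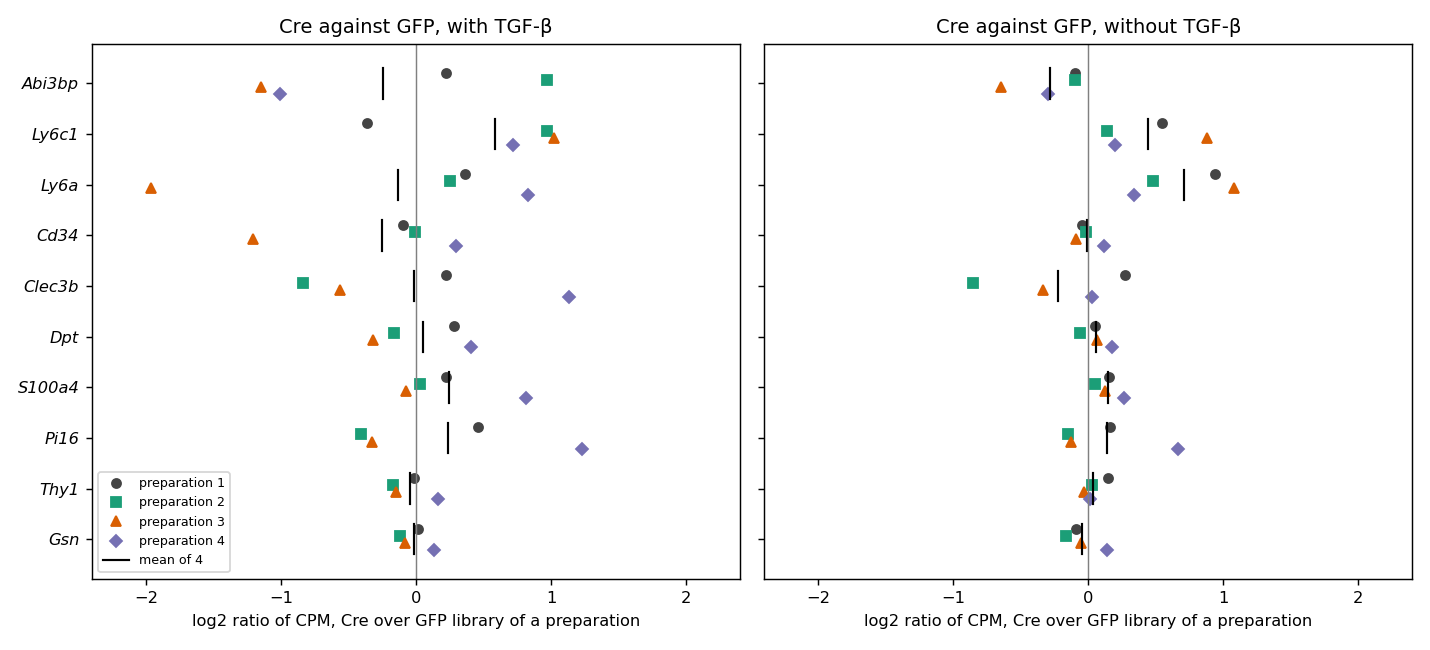
Log2 ratio of CPM, Cre over GFP library, within each of the 4 preparations, with TGF-β on the left and without it on the right, and the mean of the 4 as a bar. Without TGF-β all 4 points of Ly6a and Ly6c1 lie above 0, whereas with TGF-β the Ly6a points run from -1.97 to 0.83.

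The median of the interferon response genes was higher in the Cre library of each preparation in both media. Ly6a and Ly6c1 are known to be raised by interferons in mouse cells. The 12 interferon genes listed had a median log2 difference, Cre over GFP, of 0.71, 0.81, 0.59 and 0.60 in preparations 1 to 4 with TGF-β, and of 1.30, 0.77, 1.43 and 0.50 without. Without TGF-β, preparations 3 and 1 had the larger differences and 2 and 4 the smaller ones, both for the list and for Ly6a and Ly6c1. Gbp2, a guanylate-binding protein, stood at 91.6 ± 22.8 CPM in Cre cells and 50.1 ± 4.89 CPM in GFP cells without TGF-β (SD, n = 4 each), a log2 difference of 0.87 ± 0.16. None of the 12 genes passed without the block in either medium. With the block 5 were called higher without TGF-β, among them Gbp2 and Gbp5 (adjusted p = 0.0344 each), and 0 with it, among 0.164% of tested genes called higher with the block without TGF-β. With preparation 1, 2 or 3 left out, the block called 0 genes without TGF-β, and so none of these 5. TGF-β itself was accompanied by a fall in 9 of the 12 in Cre cells and in 8 of the 12 in GFP cells. Of all tested genes 16.3% and 15.3% were called lower. With the block all 12 fell in each type of cell, beside 27.3% and 26.5% of tested genes. The part of interferon signalling in the Ly6a and Ly6c1 values was not tested.

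**Figure D4:**
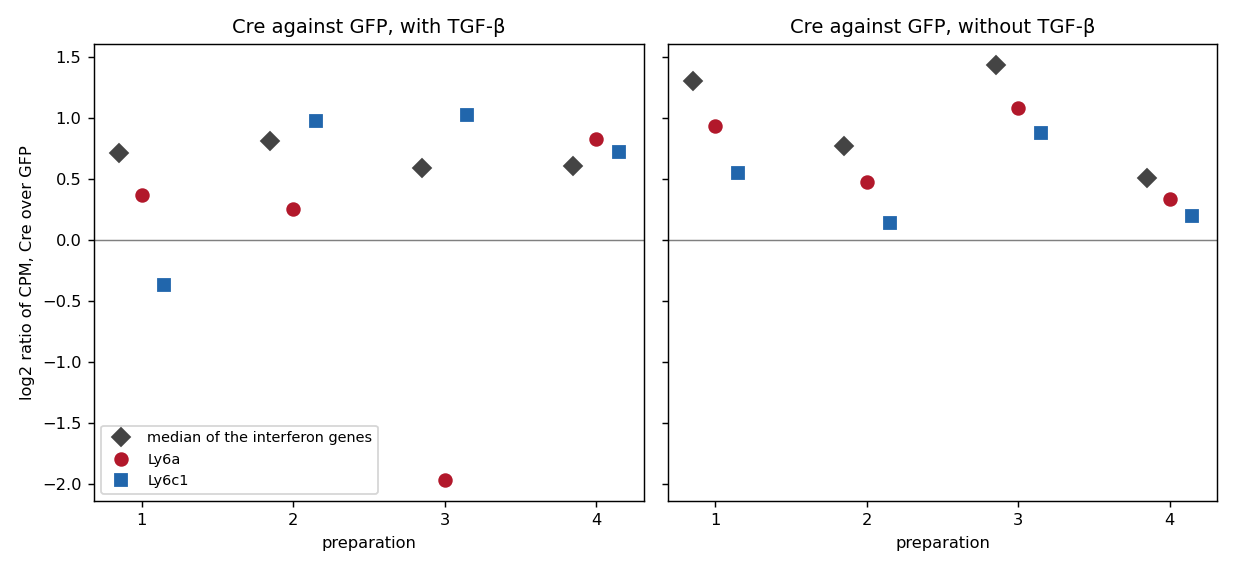
Log2 ratio of CPM, Cre over GFP library, in each preparation for Ly6a (red circles), Ly6c1 (blue squares) and the median of 12 interferon genes (grey diamonds), with TGF-β on the left and without it on the right. Without TGF-β all 3 are above 0 in each preparation and lowest in preparations 2 and 4, while with TGF-β the interferon median is above 0 and Ly6a in preparation 3 is at -1.97.

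The preparations differed in their markers beyond the differences between viruses. Without TGF-β, preparation 4 had the lowest Cd34, Pi16, Dpt, Abi3bp, Gsn and Clec3b in Cre and in GFP cells, an order that 25.4% of tested genes shared. Preparation 1 had the highest Cd34, Ly6c1, Dpt, Gsn, S100a4 and Clec3b in both (7.58% of tested genes), and preparation 2 the highest Pi16, Abi3bp and Thy1 (18.7%). Clec3b ranged from 0.516 to 5.12 CPM over the Cre libraries and from 0.507 to 4.25 CPM over the GFP libraries. Abi3bp in preparation 4 was 4.28 times below the mean of the other 3 in Cre cells and 4.02 times below it in GFP cells, and Dpt 1.95 and 2.17 times below. Ly6a went the other way in GFP cells without TGF-β, at 186 CPM in preparation 4 against a mean of 109 CPM in the others. S100a4 varied least between preparations without TGF-β, with a coefficient of variation of 10.1% in Cre cells and 7.06% in GFP cells.

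Under TGF-β, preparation 4 remained lowest in both viruses for Cd34 and Dpt, 2.43 and 3.51 times below the mean of the other preparations in Cre cells and 4.02 and 4.92 times below it in GFP cells. Being lowest in preparation 4 in all 4 groups was shared by 16.7% of tested genes. With preparation 4 left out, 9 of the 10 markers were again called lower with TGF-β in each type of cell. Over all genes, 6479 were then called in either direction in Cre cells and 6055 in GFP cells, against 4629 and 4445 with all preparations. The 9 include Ly6c1, Clec3b and Abi3bp, in which the filter favoured a fall. Preparations 1 and 4 were from male and 2 and 3 from female mice, and without TGF-β Thy1 was lower (9% of tested genes) and Ly6a higher (7.95%) in both male than in both female preparations with either virus. Only Thy1 among the markers kept such an order in all 4 groups, as did 1.45% of tested genes. With 2 preparations of each sex, sex and preparation cannot be told apart.

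**Figure D5:**
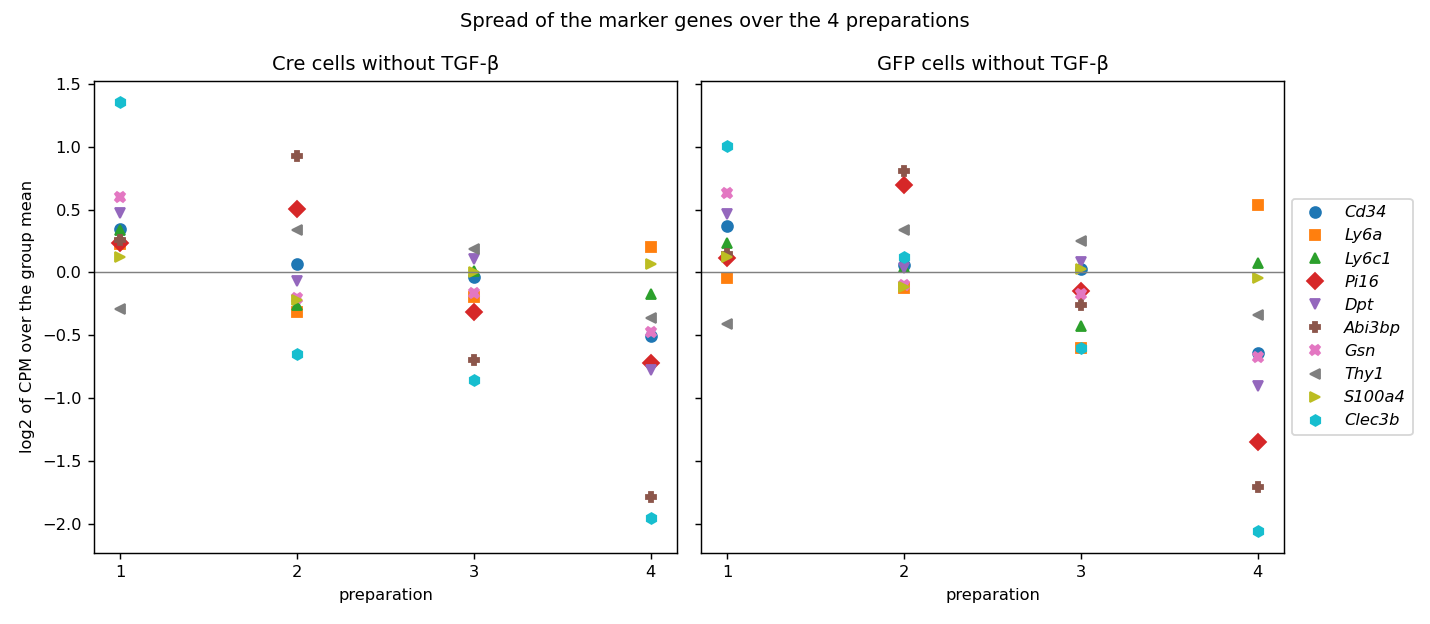
Log2 of CPM over the group mean for each marker in the 4 preparations, in Cre cells (left) and GFP cells (right) without TGF-β. In preparation 4, Clec3b, Abi3bp, Pi16, Dpt, Gsn and Cd34 lie below the group mean in both panels, while Ly6a lies above it.

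Over the 16 libraries the markers varied together, with the difference between media in all of these values. The 45 pairs had a Pearson correlation of log2 CPM from 0.49 to 0.99 (median 0.91, n = 16), with the lowest values in pairs with Gsn. Once each group's mean was subtracted, the median was 0.29 and the values ran from -0.55 to 0.95, with 31 of 45 above 0. Within groups Cd34 ran most closely with Dpt (0.95) and Gsn with Clec3b (0.94), whereas Ly6a ran against Dpt (-0.55). These are descriptions, since libraries of a preparation deviated together and 2 of the groups share each virus.

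The genes outside the set with the most similar profile over the 16 libraries were Cldn15, Pcolce, Plac9a, Mgp and Tm2d2, of 11832 genes with a mean of at least 2 CPM. Their correlation with the members' mean profile was 0.99 each. Pcolce, which encodes an enhancer of procollagen processing, averaged 442 ± 26.9 CPM in Cre cells with TGF-β and 994 ± 134 CPM without (SD, n = 4 each), and 445 ± 63.7 CPM in GFP cells with TGF-β and 962 ± 148 CPM without. Mgp, which encodes matrix Gla protein, an inhibitor of calcification, averaged 105 ± 42.0 CPM in Cre cells with TGF-β and 1729 ± 712 CPM without, and 118 ± 28.1 CPM in GFP cells with TGF-β and 1902 ± 857 CPM without. The tight junction gene Cldn15 averaged 5.15 ± 0.29 CPM in Cre cells with TGF-β and 27.6 ± 4.90 CPM without.

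Other genes of adventitial fibroblasts fell with TGF-β in most cases. Of 20 listed, 18 were tested, 12 were lower and 2 higher in Cre cells, and 11 were lower and 2 higher in GFP cells, with median log2 fold changes of -1.54 and -1.63. Over all tested genes 16.3% and 15.3% were called lower, and 27.3% and 26.5% with the block. With the block 14 of the list were lower in each, and 2 and 3 higher. The list includes Scara5, which passed the filter through the libraries without TGF-β alone, so a fall in it was favoured. Il33, an alarmin of the interleukin-1 family, stood at 0.621 ± 0.184 CPM in Cre cells with TGF-β and 23.3 ± 10.2 CPM without, and fell by 5.23 on the log2 scale. Efemp1, which encodes the matrix glycoprotein fibulin-3, stood at 6.16 ± 0.744 and 155 ± 52.9 CPM in the same groups and fell by 4.65. Tnxb, which encodes tenascin-X, fell by 2.97 in Cre cells and fell by 3.01 in GFP cells. The genes that rose were Mfap5, a microfibril component (1.00 ± 0.25 in Cre cells and 1.11 ± 0.25 in GFP cells), and the annexin Anxa3 (0.93 ± 0.23 and 0.86 ± 0.23), named after their values were seen. Both are on the adventitial list, so its genes did not all move one way.

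Of 18 genes of resident cardiac fibroblasts, 14 fell and 0 rose with TGF-β in both Cre and GFP cells (15 fell with the block), with medians of -1.89 and -1.78, beside the same shares of all tested genes. Lpl, the lipoprotein lipase gene, stood at 9.23 ± 1.54 CPM in Cre cells with TGF-β and 96.1 ± 35.6 CPM without, and complement C3 at 27.3 ± 8.21 and 227 ± 82.9 CPM. Mgp, described above, fell by 4.05 in Cre cells and fell by 4.02 in GFP cells. Fmo2, also on this list, passed the filter through the libraries without TGF-β alone, so a fall in it was favoured. Of 14 genes of activated fibroblasts, 8 rose and 1 fell in Cre cells and 7 rose and 1 fell in GFP cells, with medians of 2.15 and 2.20, where 14% and 13.8% of tested genes rose. The block gave 10 higher and 2 lower in Cre cells, and 11 and 2 in GFP cells, where it called 25.2% and 22.6% of tested genes higher. Cnn1, a calponin of contractile cells, rose by 4.60 ± 0.40 in Cre cells and 5.08 ± 0.41 in GFP cells, Meox1, a homeobox factor of activated fibroblasts, by 3.49 ± 0.30 and 3.63 ± 0.30, and Tagln, a smooth muscle actin-binding protein, by 2.94 ± 0.17 and 2.87 ± 0.17. The activated list did not move one way either. Postn averaged 28.1 ± 17.1 CPM in Cre cells with TGF-β and 105 ± 50.2 CPM without. In GFP cells Postn averaged 29.5 ± 18.3 CPM with TGF-β and 131 ± 66.0 CPM without. Comp averaged 24.4 ± 8.26 and 44.2 ± 30.4 CPM in Cre cells, and 26.9 ± 10.5 and 50.5 ± 35.4 CPM in GFP cells. Both were named after their values were seen. No gene of these 3 lists passed in Cre against GFP in either medium, with or without the block.

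Some markers of other cells were also called lower with TGF-β, beside 16.3% of tested genes in Cre cells and 15.3% in GFP cells (27.3% and 26.5% with the block). The 10 endothelial markers, which include no member, summed to 20.3 to 28.5 CPM in Cre cells with TGF-β and 38.5 to 52.4 CPM without, and to 20.6 to 32.1 CPM in GFP cells with TGF-β and 39.3 to 53.6 CPM without. Of these, 3 were called lower in each (6 with the block), and none was at 0 in all libraries. The 10 macrophage and leukocyte markers, 8 of them tested, summed to 347 to 775 CPM in Cre cells with TGF-β and 479 to 1198 CPM without, and to 367 to 751 CPM in GFP cells with TGF-β and 591 to 1151 CPM without. Of the 8, 4 were lower in Cre cells and 3 in GFP cells (7 and 8 with the block), and none was at 0 in all libraries. The 7 pericyte and smooth muscle markers summed to 77.2 to 153 CPM in Cre cells with TGF-β and 94.4 to 188 CPM without, and to 99.3 to 183 CPM in GFP cells with TGF-β and 106 to 218 CPM without, with 1 higher and 3 lower for either virus. The mesothelial and cardiomyocyte markers stayed at or below 8.61 and 23.4 CPM in sum, and of the 6 cardiomyocyte markers, 3 of them tested, Actc1 was at 0 in all libraries. Of the pericyte and smooth muscle markers, Kcnj8 and Abcc9 passed the filter through the libraries without TGF-β alone. The part of endothelial cells and leukocytes in the marker levels was not tested.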

How the data were processed

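The authors deposited raw read counts per gene for 16 libraries of cultured mouse cardiac fibroblasts. Per the submitters' processing notes, the tools were FastQC 0.10.1 and HTSeq 0.10.0, on the mouse build GRCm39. Neither the aligner nor the use of strand in counting is stated in the labels. Symbols matched 52133 of 55414 gene identifiers.

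Counts were tested with edgeR 4.0.16 (quasi-likelihood, R 4.3.3) in one fit of all 16 libraries with 1 mean per group, after TMM scaling (factors 0.908 to 1.12) and a filter on low counts (minimum 10 per library, 15 in total). This kept 15285 genes, holding 99.9% of counts, and left 40129 out. P-values were adjusted by Benjamini-Hochberg over all genes tested, with a threshold of 0.05. CPM use the scaled library sizes, and fitted fold changes a prior count of 0.125. Simulated counts with known changes were also run through the fits with and without a preparation block. The outcome is not reported here.

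Library names in the labels carry a code that same-numbered libraries share, here called the preparation, and the replicate numbers pair libraries across groups. Deviations from group means correlated at 0.323 to 0.838 in 24 pairs of the same number and at most 0.292 in 72 others. Alternatives were a preparation block, DESeq2 1.42.0, other scaling and filters, the compared libraries alone, and libraries or preparations left out. P-values without the block rest on the spread among the libraries of a group, shared over the 4 groups. That fit treats libraries of the same preparation as independent. With the block, p-values rest on the spread left once preparations are allowed to differ. The labels do not state whether the 4 preparations are independent of each other. The markers and gene lists were chosen with earlier results of these data known. Named genes are all 10 markers, Has2, the 5 nearest profiles and 3 genes per list with the smallest adjusted p, in GFP cells given TGF-β or, for interferon genes, in Cre against GFP cells without it, of which 1 is not reported here. Mfap5, Anxa3, Postn, Comp, Lynx1, Ly6d, Ly6k, Ly6e, Scara5, Fmo2, Kcnj8 and Abcc9 fall outside this rule and were named after their values were seen. Exon lengths are from GENCODE M21 and promoters from RefSeq, both on GRCm38, and no coordinates were converted.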

Additional observations from a re-analysis of the deposited data

Results flagged for a closer look

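In 3 of the 40 sets of 4 libraries (10 markers in 4 groups), 1 library stood apart from the other 3 by Dixon's test at the 95% level, which chance alone gives in about 1 in 20. Ly6a in Cre cells with TGF-β was highest in preparation 4, at 8.82 CPM, beside 1.98 to 2.37 CPM in the other 3. Dpt in the same library was lowest, at 9.86 CPM, beside 33.2 to 35.8 CPM. Clec3b in Cre cells without TGF-β was highest in preparation 1, at 5.12 CPM, beside 0.516 to 1.28 CPM.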

How the results depend on the processing

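Over the 30 settings tried, all 598 recomputed TGF-β responses of the markers were negative, and all 538 of markers other than Gsn were called. Both counts include Ly6c1, Clec3b and Abi3bp, in which the filter favoured a fall. Of the other 7 markers, all but Gsn were likewise called in every setting. Most settings reused the same libraries with some left out, so they are not independent. Gsn was called in 3 of 60, in GFP cells without the GFP library of preparation 4 (-0.66, adjusted p = 0.0403) and with the replicate block without preparation 4 (-0.55 in GFP cells, adjusted p = 0.0182, and -0.51 in Cre cells, adjusted p = 0.0248). With all preparations, the block gave -0.37 (adjusted p = 0.074) in Cre cells and -0.41 (adjusted p = 0.0537) in GFP cells and changed no marker's call. A filter of 5 CPM in 4 libraries left Clec3b untested and 8 markers called. For Cre against GFP cells and the difference of responses, 0 of 884 recomputed values were called and 123 changed sign. With a library or preparation left out, signs changed without TGF-β for Cd34 (-0.18 to 0.13), Pi16 (-0.22 to 0.38), Dpt (-0.16 to 0.24), Abi3bp (-0.73 to 0.21), Gsn (-0.33 to 0.23), Thy1 (-0.10 to 0.16) and Clec3b (-1.14 to 0.50). With TGF-β they changed for Cd34 (-0.66 to 0.019), Ly6a (-0.88 to 0.60), Pi16 (-0.18 to 0.61), Dpt (-0.36 to 0.24), Abi3bp (-0.74 to 0.49), Gsn (-0.065 to 0.021), Thy1 (-0.18 to 0.040) and Clec3b (-0.54 to 0.43), and in the difference of responses for Ly6a (-1.55 to 0.023), Ly6c1 (-0.11 to 0.47), Pi16 (-0.26 to 0.57), Dpt (-0.41 to 0.20), Abi3bp (-0.39 to 0.75), Gsn (-0.25 to 0.32), Thy1 (-0.23 to 0.038), S100a4 (-0.052 to 0.17) and Clec3b (-0.46 to 1.19). With TGF-β, Clec3b was also -0.13 with the block, and Abi3bp and Gsn were 0.00183 and 0.00118 with the stricter filter. The replicate block raised the genes called for TGF-β to 8030 of 15285 in Cre cells and 7498 in GFP cells, against 4629 and 4445 without it, and leaving out preparation 1, 2 or 3 gave 2317, 2869 and 2876 in Cre cells and 2239, 2831 and 2743 in GFP cells. Without preparation 4 they were 6479 and 6055, and with the block as well 8586 and 8051. For Cre against GFP the block gave 10 with TGF-β and 26 without. Leaving out preparation 4 gave 0 with TGF-β and 17 without, and with the block as well 232 and 114. With the block, leaving out preparation 1, 2 or 3 gave 0, 0 and 3 with TGF-β and 0 each without. The cause was not tested. Low counts limit Clec3b, Ly6c1 and Abi3bp with TGF-β, which had at most 14 counts per library.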

Other observations

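The Ly6 cluster on chromosome 15 was looked at after the values of Ly6a and Ly6c1 were seen. Of 18 genes listed from Slurp1 to Gpihbp1, 6 had enough reads to be tested. All 6 fell with TGF-β in Cre and in GFP cells, where 16.3% and 15.3% of tested genes were called lower. The 6 include Ly6a and Ly6c1, whose falls were already known. Beside Ly6a and Ly6c1 these were Lynx1, a modulator of nicotinic receptors (-1.01 ± 0.20 in Cre cells and -0.87 ± 0.20 in GFP cells), Ly6d (-3.35 ± 0.69 and -2.76 ± 0.70), Ly6k (-1.46 ± 0.36 and -1.38 ± 0.37) and Ly6e (-1.30 ± 0.26 and -0.90 ± 0.25). Ly6e, which interferons also raise, averaged 403 ± 35.8 CPM in Cre cells and 263 ± 91.7 CPM in GFP cells without TGF-β (SD, n = 4 each), a difference of 0.62 ± 0.25 that did not pass after adjustment. The other 12 genes had at most 11 counts in any library. Of the 6 tested, Ly6c1 and Ly6d passed the filter through the libraries without TGF-β alone, so a fall in them was favoured. Only Lynx1, Ly6k and Ly6e had neither limit.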
